A study of Mus musculus with 12 samples.

Results

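Mural cells are the pericytes and smooth muscle cells that wrap small and larger blood vessels. Their expression was followed in mouse heart ventricles through 10 named genes among the 51912 genes of the table, matched by symbol. They fall into 6 pericyte genes (Notch3, Vtn, Pdgfrb, Rgs5, Abcc9 and Cspg4) and 4 genes of the contractile apparatus of smooth muscle (Myh11, Tagln, Cnn1 and Mylk). RNA from fresh ventricle tissue was sequenced in 12 libraries, with 3 from each sex of each genotype, WT and LCHADD. LCHADD, the deficiency of long-chain 3-hydroxyacyl-CoA dehydrogenase, impairs the mitochondrial breakdown of long-chain fatty acids. No treatment is named, and the labels do not state the allele, the strain or the age of the animals. They also do not say whether the 3 libraries of a group came from separate animals, so p-values measure the spread between these libraries, which may be technical.

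Pericytes sit on capillaries inside the basement membrane that they share with the endothelium, and they are held there by PDGF-B, which endothelial cells secrete and which binds the receptor encoded by Pdgfrb. Contact with endothelial Notch ligands activates NOTCH3 on mural cells. Smooth muscle cells of arterioles and arteries narrow the vessel when myosin light chain kinase, encoded by Mylk, phosphorylates the light chain that drives smooth muscle myosin, whose heavy chain is Myh11. The contractile genes are switched on together by serum response factor and its partner myocardin.

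The libraries held 15.6 to 23.2 M reads assigned to genes, and values are normalised reads, that is, reads divided by 1 size factor per library. Genes encoded by the mitochondrial genome took 27.5 to 32.7% of the reads in the WT libraries and 31.0 to 37.9% in the LCHADD libraries. The ventricle label was checked with 12 cardiomyocyte markers, which summed to 677810 to 1307260 normalised reads per library, against 291 to 465 for 6 atrial markers. The atrial marker Nppa shares 61.5% of its exon bases with a gene on the opposite strand, and whether this lowers its count was not tested. Leaving out WT female 3 and LCHADD female 2, which earlier results of these data had set apart, is given beside the results it touches. The genotypes were compared in females, in males and in a sex-averaged comparison, the mean of both changes. Among the 13865 genes tested, 4692 passed in females (2314 of them higher in LCHADD and 2378 lower), 2146 in males and 5661 in the sex-averaged comparison. With scaling by the reads of nuclear genes the female split was 2884 higher and 1953 lower. All 4 groups shared 1 estimate of the spread per gene, but LCHADD females differed more among themselves. Between 2 libraries of a group, the mean squared difference in units of counting variance was 21.7 to 55 in LCHADD females. In the other groups it was 4.73 to 14.9. With each sex fitted alone, 3436 genes passed in females and 3342 in males, so the counts above do not show a difference between the sexes.

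Every member but Tagln was abundant enough to be tested, so 9 of 10 members entered the test. In the sex average all 6 pericyte genes fell in LCHADD ventricles, as did Myh11 and Mylk of the 3 tested smooth muscle genes, and 0 of 9 rose (limma, p adjusted over all tested genes by Benjamini-Hochberg, threshold 0.05). The count of rises was also 0 at an unadjusted p under 0.05, with edgeR and with DESeq2. Across all tested genes 20.6% passed as lower and 20.3% as higher in that comparison. In females 3 of 6 pericyte and 1 of 3 smooth muscle genes fell, where 17.2% of all tested genes did, and in males 3 of 6 and 2 of 3 fell, where 7.77% did. None of the 9 rose in either sex, where 16.7% of all tested genes did in females and 7.71% in males. Without WT female 3 and LCHADD female 2 the pericyte counts were 4 of 6 in females, 4 of 6 in males and 5 of 6 in the average, and the smooth muscle counts 0, 2 and 2 of 3. In that setting 1952, 1688 and 2750 of all 13865 tested genes passed as lower, against 2378, 1077 and 2853 with all libraries. In whole tissue, fewer cells of a type and less RNA per cell cannot be told apart. That average uses the same libraries as the comparisons within each sex and is no separate evidence.

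**Figure D1:**
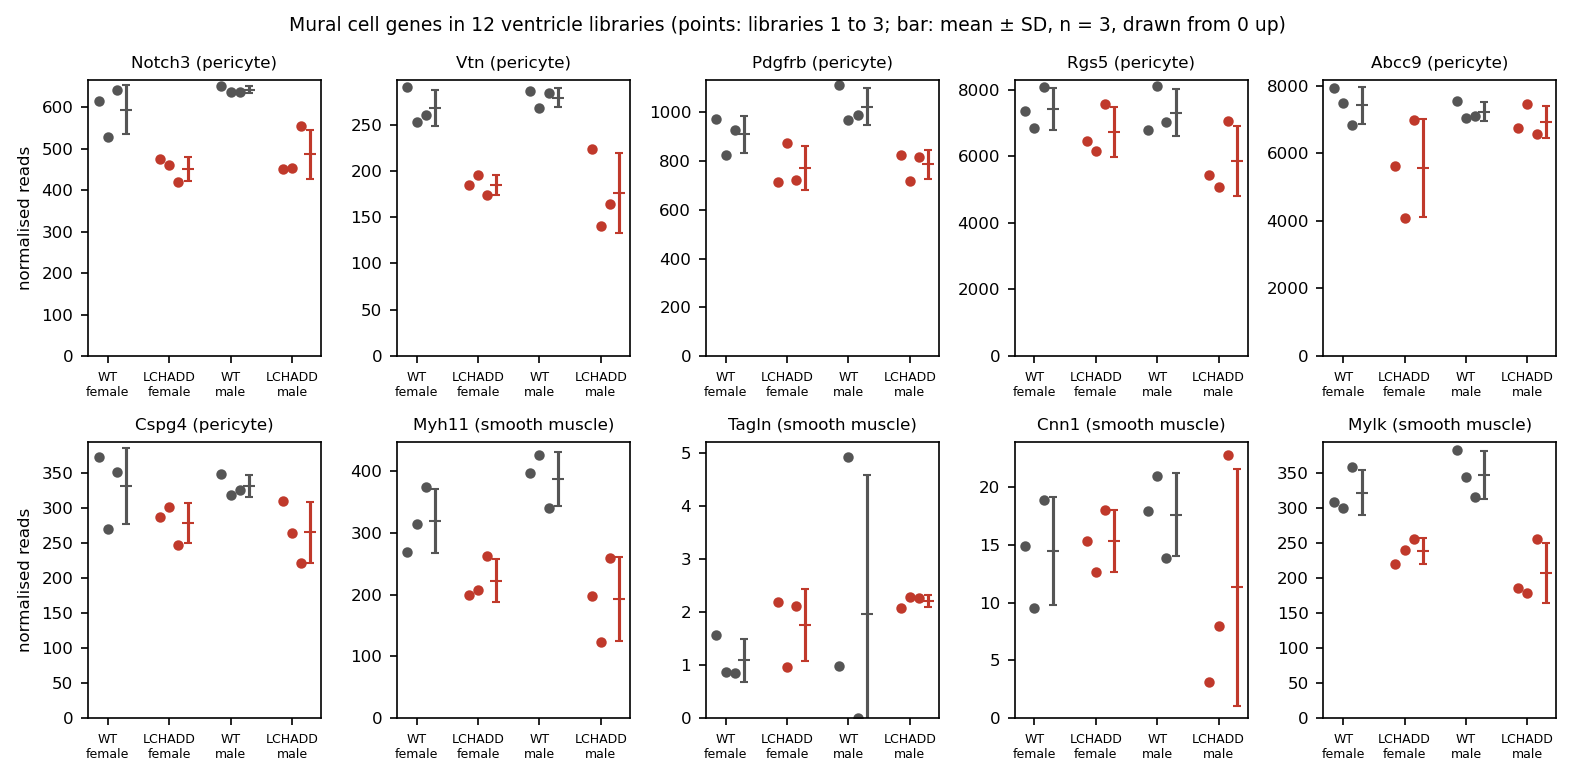
Normalised reads (vertical axes, from 0) of each of the 10 mural genes in the 4 groups, with 1 point per library and a bar for the mean ± SD (n = 3). For Vtn, Myh11 and Mylk every LCHADD library lies below every WT library, while Abcc9 in males overlaps between the genotypes and Tagln stays below 5 in every library.

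The levels of the members differed widely. Per kilobase of exon, Rgs5 had the highest level in WT, 1621 ± 133 normalised reads (SD, n = 6), and Abcc9 the next, 875 ± 48.3. Pdgfrb had 176 ± 16.9, Vtn 135 ± 7.52 and Notch3 76.4 ± 5.70 normalised reads per kilobase. The smooth muscle genes lay below these pericyte genes, with Myh11 at 46.5 ± 7.49 and Mylk at 29.7 ± 2.88 normalised reads per kilobase. Mylk and the pericyte gene Cspg4, at 27.8 ± 2.98, were not separated, since their WT ranges of 26.6 to 34.0 and 22.7 to 31.2 overlapped. Cspg4 lay below Myh11, whose WT range was 35.4 to 56.0. Cnn1 had 5.85 ± 1.5 and Tagln 0.773 ± 0.874 normalised reads per kilobase.

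Vtn encodes vitronectin, an adhesive protein of blood plasma and matrix that marks pericytes in many tissues. WT females 1, 2 and 3 had 290.3, 253 and 260.2 normalised reads and LCHADD females 185, 195 and 174. WT males had 286, 268 and 284 and LCHADD males 224, 141 and 164. The highest LCHADD library, male 1, lay below the lowest WT library, so the genotypes did not overlap in either sex. Expressed as LCHADD minus WT, the female log2 change was -0.53 (SE 0.14, limma adjusted p = 0.010) and the male one -0.69 (SE 0.14, adjusted p = 0.0049). In the sex average Vtn (ENSMUSG00000017344) fell by 0.61 on the log2 scale (SE 0.10, adjusted p = 0.00023), and it passed in each of the 22 alternative analyses of that comparison. The 250 bases before its annotated start (RefSeq, build GRCm38.p6, chr11:78498870-78499119, plus strand, 5′ to 3′) are shown because Vtn had the smallest adjusted p of the pericyte genes and is 1 of the 2 members whose window holds TGGGAA, the core bound by RBPJ, the DNA-binding partner of Notch. The capitals mark that match.
Vtn: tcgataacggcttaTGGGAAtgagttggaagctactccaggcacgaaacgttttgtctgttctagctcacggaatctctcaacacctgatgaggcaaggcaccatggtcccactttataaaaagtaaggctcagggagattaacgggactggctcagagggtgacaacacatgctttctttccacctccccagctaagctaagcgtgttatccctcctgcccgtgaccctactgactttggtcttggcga

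Notch3 encodes the Notch receptor of mural cells. Its normalised reads were 614, 527 and 641 for WT and 475, 460.2 and 419 for LCHADD females. The male values were 651, 636 and 637 for WT and 451, 453 and 554 for LCHADD. Within each sex all 3 LCHADD libraries lay below all 3 WT libraries, but LCHADD male 3 lay above WT female 2. Notch3 (ENSMUSG00000038146) fell in the female comparison (log2 change -0.39, SE 0.10, adjusted p = 0.0082), the male one (-0.41, SE 0.10, adjusted p = 0.014) and their average (-0.40, SE 0.07, adjusted p = 0.00046). The male result did not pass without WT male replicate 1 (adjusted p = 0.054), LCHADD male replicate 1 (0.071) or LCHADD male replicate 2 (0.057).

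Pdgfrb encodes the receptor through which PDGF-B recruits pericytes. WT females had 974, 826 and 929 normalised reads and LCHADD females 714, 875 and 723, so LCHADD female 2 lay inside the WT range. WT males had 1112, 969 and 991 and LCHADD males 826, 718 and 817, with no overlap. Pdgfrb (ENSMUSG00000024620) fell in males (log2 change -0.38, SE 0.10, adjusted p = 0.019) and in the sex-averaged comparison (-0.31, SE 0.07, adjusted p = 0.0027). In females its log2 change was -0.24 (SE 0.10, adjusted p = 0.076), and without LCHADD female replicate 2 it was -0.34 (adjusted p = 0.010). The male result did not pass without WT male replicate 1 (adjusted p = 0.094) or LCHADD male replicate 2 (0.079).

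The 3 remaining pericyte genes passed in the sex-averaged comparison by a narrow margin. Rgs5 encodes a regulator that shortens signalling by G proteins, and it is among the most abundant pericyte transcripts. Female libraries had 7361, 6836 and 8092 normalised reads for WT and 6445, 6151 and 7563 for LCHADD. Male libraries had 6774, 8123 and 7039.6 for WT and 5451, 5076 and 7065 for LCHADD. The replicate 3 library of each LCHADD group lay within the WT range and the others were lower. The log2 change was -0.15 in females (SE 0.12, adjusted p = 0.36), -0.33 in males (SE 0.12, adjusted p = 0.072) and -0.24 in the sex-averaged comparison (SE 0.08, adjusted p = 0.032) for Rgs5 (ENSMUSG00000026678). Without LCHADD male replicate 3 the male change was -0.47 (adjusted p = 0.013).

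Cspg4 encodes NG2, a proteoglycan on the surface of pericytes. Female libraries had 372, 271 and 352 normalised reads for WT and 288, 301 and 247 for LCHADD, and male libraries 349, 318 and 326 for WT and 309.5, 264 and 222 for LCHADD. The genotypes overlapped in females and did not in males. The log2 change of Cspg4 (ENSMUSG00000032911) was -0.24 in females (SE 0.14, adjusted p = 0.21), -0.33 in males (SE 0.14, adjusted p = 0.13) and -0.29 in the sex-averaged comparison (SE 0.10, adjusted p = 0.032).

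Abcc9 encodes SUR2, the regulatory subunit of ATP-sensitive potassium channels in pericytes, smooth muscle and also cardiomyocytes. WT females had 7947, 7476 and 6849 normalised reads and LCHADD females 5628, 4077 and 6986. WT males had 7546, 7031 and 7109.7 and LCHADD males 6745, 7468 and 6564. LCHADD female 2 was the lowest library by far, and LCHADD female 3 and LCHADD male 2 lay within the WT range. Abcc9 (ENSMUSG00000030249) fell in females (a log2 change of -0.45, SE 0.14, adjusted p = 0.020) and had a log2 change of -0.06 in males (SE 0.14, adjusted p = 0.80). The sex average was -0.26 (SE 0.10, adjusted p = 0.046). Without LCHADD female replicate 2 the female change was -0.24 (adjusted p = 0.047) and the sex average -0.15 (adjusted p = 0.049). The female result did not pass without WT female replicate 1 (adjusted p = 0.077) or WT female replicate 2 (0.056), nor with the female groups alone in the fit (0.092). The 12 cardiomyocyte markers were also lowest in LCHADD female 2, where their mean log2 value lay 0.88 below the WT female mean. The part of cardiomyocyte RNA in the Abcc9 values was not tested.

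With scaling by the reads of nuclear genes, Rgs5, Cspg4 and Abcc9 did not pass in the sex-averaged comparison (adjusted p = 0.081, 0.065 and 0.075), which left 3 of 6 pericyte genes. The same count of 3 was reached without WT female replicate 1. Over the 22 alternatives of that comparison the adjusted p ranged from 0.0041 to 0.094 for Rgs5, from 0.0098 to 0.088 for Cspg4 and from 0.0012 to 0.10 for Abcc9. EdgeR called 5 of the 6 pericyte genes lower, without Abcc9, and DESeq2 called 6.

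Among the contractile genes, Mylk, the kinase that starts smooth muscle contraction, fell in both sexes. The WT females had 308, 299 and 358 normalised reads and the LCHADD females 219.8, 239.8 and 256. Male values were 382, 344 and 315 for WT and 186, 179 and 256 for LCHADD. All 6 LCHADD libraries lay below all 6 WT libraries. The log2 change of Mylk (ENSMUSG00000022836) was -0.43 in females (SE 0.14, adjusted p = 0.027), -0.76 in males (SE 0.14, adjusted p = 0.0019) and -0.59 in the sex-averaged comparison (SE 0.10, adjusted p = 0.00021). The female result did not pass with scaling by nuclear reads (adjusted p = 0.063), without WT female replicate 3 (0.11), without LCHADD female replicate 1 (0.092), or without WT female 3 and LCHADD female 2 together (0.12). The other comparisons of Mylk passed in every alternative run.

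Myh11 encodes the heavy chain of smooth muscle myosin. Among females the values were 269, 315 and 373 normalised reads for WT and 199, 207 and 262 for LCHADD, and among males 396, 425 and 339.9 for WT and 197, 124 and 259 for LCHADD. All LCHADD libraries lay below all WT libraries, and LCHADD male 2 was the lowest. Myh11 (ENSMUSG00000018830) fell in males (log2 change -1.06, SE 0.21, adjusted p = 0.0036) and in the sex-averaged comparison (-0.79, SE 0.15, adjusted p = 0.00068). In females the log2 change was -0.52 (SE 0.21) with an adjusted p of 0.074, although the 3 values in each group did not overlap. That female change passed with DESeq2 (adjusted p = 0.040), with the female groups alone in the fit (0.046), and without LCHADD female replicate 3 (0.036), LCHADD male replicate 2 (0.021) or LCHADD male replicate 3 (0.039).

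Cnn1 encodes calponin 1, which binds actin and restrains smooth muscle contraction, and it was counted from few reads. WT females had 19, 11 and 22 reads (14.9, 9.54 and 18.8 normalised) and LCHADD females 14, 13 and 17 (15.3, 12.6 and 18 normalised). WT males had 18, 17 and 16 reads and LCHADD males 3, 7 and 20, which are 3.13, 8.01 and 22.8 normalised reads. LCHADD males 1 and 2 were the lowest libraries and LCHADD male 3 the highest of the 12 in normalised reads, so the group spanned the WT range. No change of Cnn1 (ENSMUSG00000001349) was detectable at this depth, with log2 changes of 0.12 in females (SE 0.50, adjusted p = 0.88), -0.93 in males (SE 0.50, adjusted p = 0.23) and -0.41 in the sex-averaged comparison (SE 0.36, adjusted p = 0.38). Without LCHADD male replicate 3 the male change was -1.59 (adjusted p = 0.033).

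Tagln encodes transgelin (SM22), an actin-binding protein and a common marker of smooth muscle. Libraries 1, 2 and 3 had 2, 1 and 1 reads for WT females, 1, 4 and 0 for WT males, 2, 1 and 2 for LCHADD females and 2, 2 and 2 for LCHADD males, too few for a test. The 0 in WT male 3 allows up to 3 reads, or 2.59 normalised reads, counting error only. In GENCODE vM21, 67.9% of the exon bases of Tagln (ENSMUSG00000032085) also lie in exons of Gm48529 on the opposite strand, a gene with 0 to 8 reads per library. Such shares were 6.85% for Mylk, 6.03% for Notch3, 1.89% for Abcc9 and 0 for the other 6 members. Whether this overlap bears on the low count of Tagln was not tested, since the counting is not given in the sources used here, and its level here is uncertain.

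Sequence upstream of the contractile genes was compared because serum response factor binds the CArG box. RefSeq windows on GRCm38.p6 were matched for 7 of 10 members, all except Pdgfrb, Myh11 and Tagln. Searched on both strands, the 250 upstream bases held a CArG box in 0 of these 7 members, and 1.47% of all 32851 windows hold it. Only 2 of the 4 smooth muscle members, Cnn1 and Mylk, had a window. With so few windows and so rare a match, this count cannot show whether the contractile members lack the box. TGGGAA was in the windows of Vtn and Abcc9, 2 of 7 members, and is in 21.6% of all windows. Of the 18 other smooth muscle genes with a window, Myl9, Filip1l and Vcl had a CArG box. Mylk, at chr16:34784700-34784949 on the plus strand, is shown as the contractile member with the smallest adjusted p. Its window precedes an annotated start inside the gene and not the gene's outermost start. Myl9, the light chain that the kinase phosphorylates, at chr2:156775214-156775463 on the plus strand, is shown for comparison with its CArG box in capitals, which begins 161 bases before the start.
Mylk: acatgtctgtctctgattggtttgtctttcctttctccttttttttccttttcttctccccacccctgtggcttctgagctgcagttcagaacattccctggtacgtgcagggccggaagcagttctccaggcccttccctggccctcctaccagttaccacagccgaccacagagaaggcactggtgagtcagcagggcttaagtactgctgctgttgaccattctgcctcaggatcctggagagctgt
Myl9: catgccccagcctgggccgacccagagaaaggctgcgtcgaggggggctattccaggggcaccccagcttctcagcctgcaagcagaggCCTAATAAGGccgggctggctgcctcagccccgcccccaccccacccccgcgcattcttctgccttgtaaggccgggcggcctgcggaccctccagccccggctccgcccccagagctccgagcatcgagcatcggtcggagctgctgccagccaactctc

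In these data Myl9, picked for its window, averaged 222 ± 39.2 normalised reads across the WT libraries and 152 ± 47.7 across the LCHADD libraries (SD, n = 6) and fell in the sex-averaged comparison (log2 change -0.59, SE 0.17, adjusted p = 0.013). A match is a run of letters and no shown binding site, and these windows leave out introns and distant sites.

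**Figure D2:**
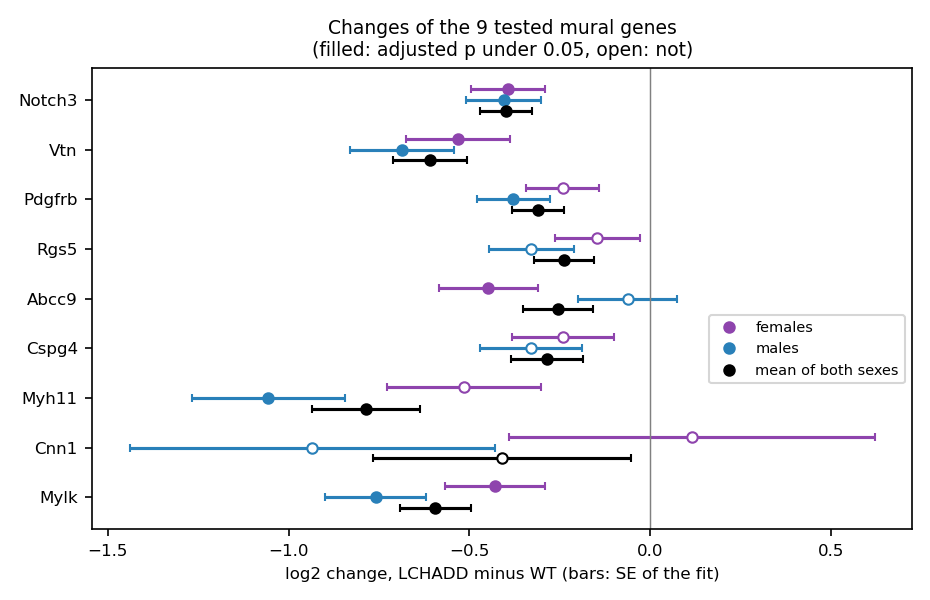
Log2 change, LCHADD minus WT (horizontal axis), of the 9 tested mural genes in females, in males and in the sex-averaged comparison, with bars for the SE of the fit. Filled points passed at an adjusted p under 0.05. The values lie below 0 except for Cnn1 in females, and the widest bars are those of Cnn1.

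Class by class, the median log2 change of the 6 pericyte genes was -0.32 in females, -0.35 in males and -0.30 in the sex-averaged comparison. For the 3 tested smooth muscle genes the medians were -0.43, -0.93 and -0.59, the male value being that of Cnn1, which did not pass. Over all tested genes the medians were -0.0035, 0.00002 and -0.0019. Groups did not overlap, with LCHADD lower, for 2 of 6 pericyte genes in females, 4 of 6 in males and 1 of 6 over both sexes. For the smooth muscle genes it was 2 of 3 in each of these comparisons. Of all tested genes 22.3%, 19.3% and 9.91% did so. The summed level of the pericyte genes, which Rgs5 and Abcc9 dominate, was 16189 to 17560 normalised reads in WT libraries and 12059 to 16113 in LCHADD libraries. The 4 smooth muscle genes summed to 594 to 798 normalised reads in WT and 313 to 541 in LCHADD. Neither sum overlapped between the genotypes.

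Library by library, the mean shift of the pericyte genes varied little within LCHADD. Their mean log2 value, set against the WT mean of the same sex, was -0.33, -0.35 and -0.32 in LCHADD females 1, 2 and 3 and -0.29, -0.46 and -0.34 in LCHADD males. Single pericyte genes varied more. Abcc9 had -0.86 in LCHADD female 2 and 0.05 in LCHADD male 2, and Vtn -0.31 in LCHADD male 1 and -0.98 in LCHADD male 2. The mean of the 3 tested smooth muscle genes ranged more widely than that of the pericyte genes, with -0.36, -0.39 and -0.08 in LCHADD females and -1.34, -1.20 and -0.21 in LCHADD males. Cnn1, with 20 reads in LCHADD male 3 against 3 and 7 in the other LCHADD males, took much of that spread. Myh11 and Mylk, the other tested smooth muscle genes, were also nearest to WT in LCHADD male 3, where both still lay below every WT library.

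**Figure D3:**
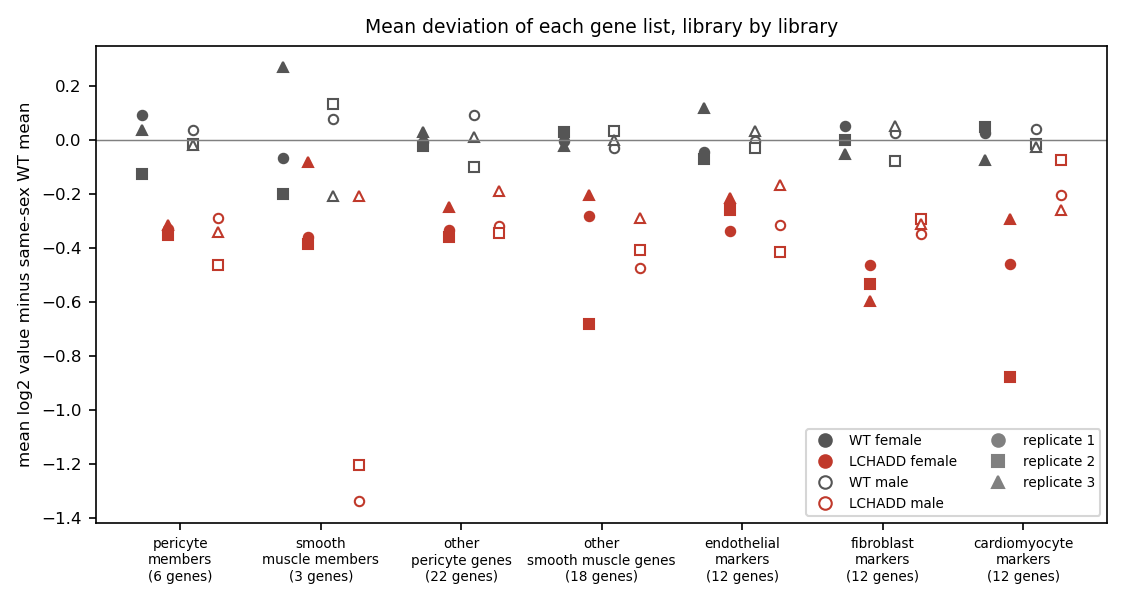
Mean log2 value of each gene list in each library minus the WT mean of the same sex (vertical axis), for the pericyte and smooth muscle members and for marker lists of other cell types. Points are libraries, with colour for genotype, fill for sex and shape for replicate. The LCHADD libraries lie between -0.46 and -0.29 for the pericyte genes and between -1.34 and -0.08 for the smooth muscle genes.

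Whether the genotype difference itself differed between the sexes was tested as an interaction. None of the 9 tested members passed (limma, 0 of 9 adjusted, 0 of 9 at an unadjusted p under 0.05, and 0 of 9 with edgeR and with DESeq2), and 1 gene of all tested, 0.00721%, passed. The interaction, the female change minus the male change, was 0.54 for Myh11 on the log2 scale (95% interval -0.10 to 1.18, adjusted p = 0.58) and 0.33 for Mylk (-0.09 to 0.75, adjusted p = 0.61). For Abcc9 it was -0.38 (95% interval -0.80 to 0.03, adjusted p = 0.54). Notch3 had 0.01 (95% interval -0.30 to 0.32, adjusted p = 0.99). These 4 intervals include 0, and those of Myh11 and Abcc9 also include differences as large as the change in the sex that passed, so the passing of Myh11 in males and of Abcc9 in females does not show that the sexes differ.

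Other genes of mural cells were read from lists outside the 10 members. Of 22 further pericyte genes 13 fell and 1 rose in the sex-averaged comparison, with a median log2 change of -0.34. Art3, an ADP-ribosyltransferase family gene that heart muscle also expresses, fell from 3588 ± 259.7 to 1572 ± 183 normalised reads (SD, n = 6; log2 change -1.20, SE 0.07, adjusted p = 8.0e-09). Gjc1, the gap junction protein connexin 45, fell by 0.61 on the log2 scale (SE 0.09), and Cd248, the surface protein endosialin, by 0.86 (SE 0.13). Steap4, a metalloreductase, fell by 0.41 (SE 0.07), Anpep, aminopeptidase N, by 0.44 (SE 0.08), and Ebf1, a transcription factor of mural and other cells, by 0.51 (SE 0.10). For these 6 genes no LCHADD library reached the WT range, but they were picked by adjusted p in the same libraries, so that is no separate evidence. Of all 22 further pericyte genes 9 had every LCHADD library below every WT library, as did 9.91% of all tested genes. Among those that did not pass, Colec11 had a log2 change of -0.24 (adjusted p = 0.095) and Higd1b -0.15 (0.42). The 1 that rose, named after its value was seen, was Ednra, the endothelin receptor of mural cells and cardiomyocytes, from 532 ± 60.6 to 655 ± 55.1 normalised reads (a log2 change of 0.30, SE 0.06, adjusted p = 0.0013).

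The pore and the regulatory subunits of ATP-sensitive potassium channels, which couple the energy state of a cell to its membrane potential, moved in both directions. Kcnj8, which encodes the Kir6.1 pore typical of vascular mural cells, fell from 567 ± 23.7 to 448 ± 39.2 normalised reads (SD, n = 6; log2 change -0.34, SE 0.07, adjusted p = 0.00096). Kcnj11, the Kir6.2 pore of cardiomyocytes, fell by 0.36 (SE 0.05, adjusted p = 4.5e-05). Abcc8, which encodes the other sulfonylurea receptor, SUR1, rose (log2 change 0.22, SE 0.06, adjusted p = 0.0077), with 850.3 ± 18.3 and 886 ± 76.0 normalised reads in WT and LCHADD females and 670.4 ± 20.7 and 881 ± 68.5 in males (SD, n = 3). With Abcc9, 3 of the 4 channel genes fell and 1 rose in the sex-averaged comparison. Kcnj8 is also on the list of further pericyte genes, so these counts share genes.

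Of 20 further smooth muscle genes 18 were tested, and 11 fell and 0 rose in the sex-averaged comparison (median log2 change -0.42). Tpm1 and Tpm2, which encode tropomyosins, fell by 0.58 (SE 0.07) and 0.72 (SE 0.11) on the log2 scale. The actin crosslinker Flna fell by 0.36 (SE 0.06), Filip1l by 0.48 (SE 0.08), the actin-binding Synpo2 by 0.64 (SE 0.13), and Ppp1r12b, a targeting subunit of myosin phosphatase, by 0.24 (SE 0.05). Several of these are also muscle genes of the cardiomyocyte: Tpm1 had 139614 ± 7864 normalised reads in WT, and Des, which encodes the intermediate filament desmin, had 24142 ± 1547 in WT and 23859 ± 1734 in LCHADD (log2 change -0.02, adjusted p = 0.82). Acta2, the smooth muscle actin, varied from 449 to 3413 normalised reads between libraries, both of these in LCHADD females, and its log2 change was -0.53 (SE 0.37, adjusted p = 0.28). Ppp1r12a, the other myosin phosphatase targeting subunit of the list, had 0.11 (adjusted p = 0.25).

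Of 10 regulators of the contractile genes 6 fell and 0 rose in the sex-averaged comparison (median log2 change -0.30). Myocd, which encodes myocardin and is active in both smooth and cardiac muscle, fell from 1128 ± 128 to 764 ± 89.0 normalised reads (SD, n = 6; log2 change -0.56, SE 0.07, adjusted p = 2.7e-05). Klf4, a factor that opposes the contractile programme, fell by 0.79 (SE 0.16), Nfatc1 by 0.42 (SE 0.10), Foxo4 by 0.39 (SE 0.06), Gata6 by 0.30 (SE 0.08) and Mrtfa, a cofactor of serum response factor, by 0.30 (SE 0.10). Srf, the serum response factor gene, had a log2 change of -0.15 (adjusted p = 0.072), Tead1 -0.11 (0.11) and Mrtfb -0.25 (0.062).

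Signals between endothelium and mural cells were followed in 28 ligands, receptors and effectors of the PDGF, Notch, angiopoietin, sphingosine and endothelin pathways and of actomyosin contraction. In the sex average 18 fell and 2 rose (median log2 change -0.38). Among Notch genes, the ligands Jag2 and Dll4 fell by 0.69 (SE 0.07) and 0.57 (SE 0.09) on the log2 scale, the receptor Notch2 by 0.54 (SE 0.08) and the target Hey2 by 0.93 (SE 0.14), while Rbpj had -0.07 (adjusted p = 0.43). Tek, the angiopoietin receptor of endothelial cells, fell by 0.65 (SE 0.06) and S1pr1, a sphingosine phosphate receptor, by 0.55 (SE 0.08). Tek and Tie1 are also among the endothelial markers below, and Pdgfra among the fibroblast markers, so the counts of these lists share genes. The kinases Rock1 and Rock2, which act on myosin phosphatase, had log2 changes of -0.15 (adjusted p = 0.051) and -0.0005 (adjusted p = 1.0). The 2 that rose, named after their values were seen, were Ednrb, an endothelin receptor, by 0.38 (SE 0.09, adjusted p = 0.0041) and Rhoa, the small GTPase upstream of Rock1 and Rock2, by 0.20 (SE 0.05, adjusted p = 0.0071).

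Of the markers of other cells, those of endothelium, fibroblasts and cardiomyocytes were mostly lower in LCHADD too. The lists did not go together in each library. In LCHADD male 2 the mean log2 value, set against WT males, was -0.07 for the cardiomyocyte markers and -0.46 for the pericyte members. In the sex average 7 of 12 endothelial markers fell and 0 rose, with a summed level of 18402 to 21512 normalised reads in WT and 14974 to 18294 in LCHADD and a median log2 change of -0.24. The most abundant of them, Fabp4, Kdr and Cdh5, had log2 changes of -0.12 (adjusted p = 0.36), -0.14 (0.11) and -0.39 (7.9e-05). Of 12 fibroblast markers 11 fell and 0 rose (sum 27229 to 30167 in WT, 15855 to 21889 in LCHADD, median -0.46), and Gsn, Dcn and Col3a1, the most abundant, had log2 changes of -0.69, -0.60 and -0.48. Of 12 cardiomyocyte markers 8 fell and 0 rose (sum 1201560 to 1307260 in WT, 677810 to 1192720 in LCHADD, median -0.43). In females 10 fell, where 17.2% of all tested genes did, and in males 2 fell, where 7.77% did. In the interaction 0 of these 12 passed and 7 had an unadjusted p under 0.05 (limma), so a difference between the sexes is not shown. Myh6, Actc1 and Myl2, the most abundant cardiomyocyte markers, had log2 changes of -0.42, -0.55 and -0.27.

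Of 10 macrophage markers 0 rose and 0 fell in the sex-averaged comparison by limma (sum 3382 to 4837 in WT, 3337 to 5365 in LCHADD, median 0.13). There 1 rose at an unadjusted p under 0.05, and 1 rose with edgeR and with DESeq2. In females 3 rose (median 0.24), where 16.7% of all tested genes did, and in males 0 rose (median -0.14). Lyz2, C1qb and C1qa, the most abundant of the 10, had log2 changes in the sex average of 0.25 (adjusted p = 0.14), -0.01 (0.93) and -0.04 (0.80). All 5 tested erythroid markers, among them globin genes with near-identical copies, fell (sum 6973 to 12559 in WT, 1915 to 4489 in LCHADD, median -1.37). Of 5 tested markers of large vessels and valves, which smooth muscle of arteries shares in part, 1 fell and 0 rose (sum 625 to 901 in WT, 606 to 757 in LCHADD). Fbln5 was the gene that fell (log2 change -0.39, adjusted p = 0.011), Eln, which encodes the elastin of artery walls, had 0.19 (adjusted p = 0.19), and Prg4 had -0.35 (adjusted p = 0.11). None of these lists had a member at 0 in all 12 libraries. Markers of nerve and Schwann cells (5 tested, 3 fell, Th at 0 throughout), atrium (4 tested, 1 rose and 1 fell), adipocytes (1 tested, 1 fell), mesothelium (2 tested, 1 rose) and skeletal muscle (1 tested, which did not pass, Myh4 at 0 throughout) were sparse. The part of these cell types, and of the higher mitochondrial share of reads in LCHADD, in the mural changes was not tested.

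**Figure D4:**
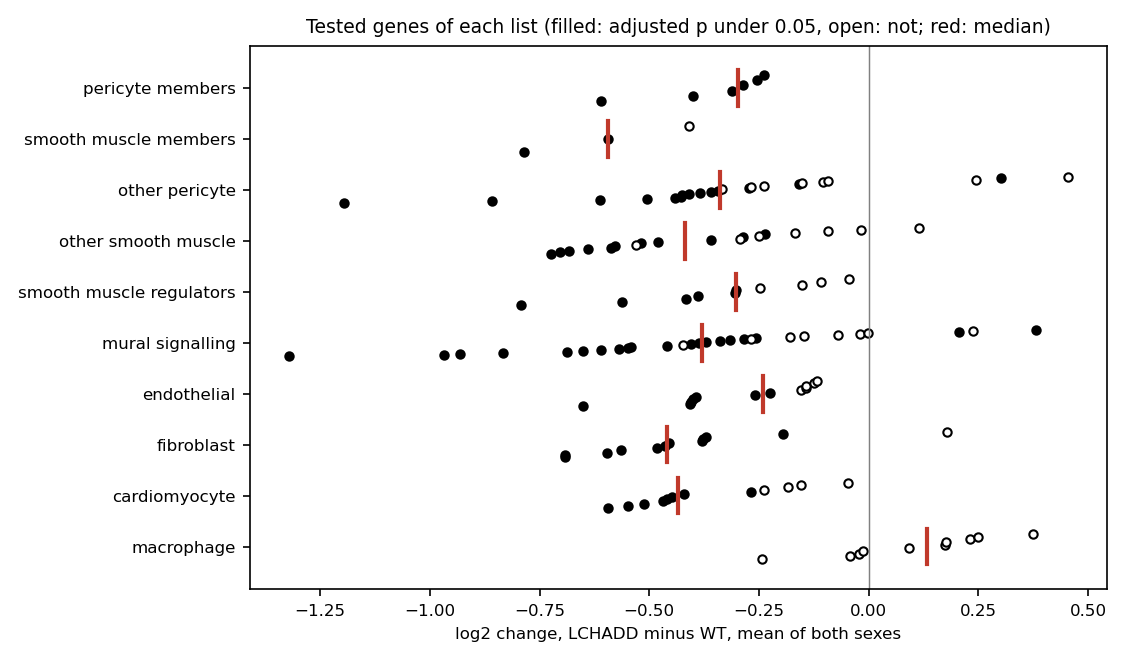
Log2 change, LCHADD minus WT, in the sex-averaged comparison (horizontal axis) for each tested gene of the mural lists and of the marker lists of other cell types. Filled points passed at an adjusted p under 0.05, and a red mark gives the list's median, which is -0.30 for the pericyte members, -0.59 for the smooth muscle members and 0.13 for the macrophage markers.

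The genes whose pattern over the 12 libraries lay nearest to 2 members were found by the root mean square difference of log2 values, each gene centred on its own mean. Nearest to Vtn were Tmem88, at 0.107 log2 units, Arhgef25, a guanine nucleotide exchange factor, at 0.110, and Phc1, a polycomb protein, at 0.112. Their log2 changes in the sex-averaged comparison were -0.67, -0.60 and -0.58. Nearest to Mylk were C130074G19Rik at 0.128, Ablim3, an actin-binding LIM protein, at 0.129 and Ly6a, which encodes the surface antigen Sca-1, at 0.145 log2 units, with log2 changes of -0.56, -0.49 and -0.47. The 12 libraries share the genotype difference and the scaling, so this likeness is a description of these libraries.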

How the data were processed

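Total RNA of mouse heart ventricle was sequenced in 12 libraries of 15.6 to 23.2 M reads assigned to genes. The authors deposited 1 signal value per gene and library, made with genome build GRCm39, bcl2fastq and DESeq2 per the submitters' processing notes, without versions. How reads were aligned and counted, with which annotation and whether by strand, is not given in the sources used here. All deposited values (100% in each library) were whole multiples of 1 step per library, within 0.01, so read counts were recovered from them. Symbols and exon lengths came from GENCODE vM21 (build GRCm38), which matched 51633 of 51912 identifiers, and upstream windows from RefSeq (GRCm38.p6). Windows on chromosome 18 were left out.

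Log2 of the value plus 1 was tested with limma 3.58.1 (R 4.3.3, eBayes with a trend) in 1 fit with 4 group means, for the 13865 genes with at least 10 in at least 3 libraries. The threshold was 0.05 on p-values adjusted over these genes by Benjamini-Hochberg. The adjusted p is limma's where no other tool is named, and changes are LCHADD minus WT with the SE of the fit. The fit and its calls were also run on simulated counts, drawn with 1 dispersion per gene for all 4 groups. That run cannot show how the wider spread among LCHADD females affects the calls. Changes of genes with few reads depend on the added 1.

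Alternatives were 0.5 or 5 added, no filter or a filter at 50, TMM and nuclear-read scaling, edgeR 4.0.16 (quasi-likelihood) and DESeq2 1.42.0 on the recovered reads, the compared groups alone, the replicate number as a block, and libraries left out. Members, 18 gene lists and tests were chosen with earlier results of these data known. Of each further mural list the text names up to 6 genes with the smallest adjusted p that passed in the sex-averaged comparison and up to 3 abundant ones that did not. Of other cell types it names up to 3 abundant markers, and for Vtn and Mylk the 3 nearest genes. A gene that the rule takes is not reported here.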

Additional observations from a re-analysis of the deposited data

How the results depend on the processing

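Each tested member's change was recomputed in up to 23 alternatives in each sex and up to 22 in the sex-averaged comparison and the interaction. Of 801 alternative values, 738 kept both their direction and their side of the threshold, 41 lost the call, 13 gained one and 9 changed sign. The 17 changes that had passed stayed negative in all 383 alternative values and passed in 342 of them. In the sex-averaged comparison Notch3, Vtn, Pdgfrb, Myh11 and Mylk passed in all 22 alternatives, Cspg4 in 14, Rgs5 in 13 and Abcc9 in 10. The cause of the lost calls was not tested.

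Smooth muscle genes that fell in females numbered 1, but 0 with nuclear-read scaling, 2 with DESeq2, 2 with the female groups alone and 0 without WT female 3 and LCHADD female 2. Pericyte genes that fell in the sex-averaged comparison numbered 6, but 3 with nuclear-read scaling. Of all tested genes 4692 passed in females, but 3436 with the female groups alone. In males 2146 passed, but 3342 with the male groups alone and 3317 without WT female 3 and LCHADD female 2. On the recovered reads edgeR called 4808 genes in females, 2123 in males and 5698 in the sex-averaged comparison. The interaction count of 1 became 2 with a filter at 50, 2 with edgeR, 104 with DESeq2 and 9 without WT female 3 and LCHADD female 2.

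With each library left out in turn, the genes that passed numbered 3733 to 5075 in females, 1317 (without WT male replicate 3 or LCHADD male replicate 1) to 3293 (without LCHADD female replicate 2) in males, 5019 to 6033 in the sex-averaged comparison and 0 to 186 (without LCHADD female replicate 3) in the interaction. The same runs gave 2 to 4 pericyte and 0 to 2 smooth muscle genes in females, 1 to 4 and 2 to 3 in males, and 3 to 6 and 2 in the sex-averaged comparison. The males' 1 was Vtn, without WT male replicate 1 or LCHADD male replicate 2. Sign changes, none of them of a change that had passed, were those of Cnn1 in females (-0.14 without WT female replicate 2 and -0.00058 without LCHADD female replicate 3), of the Notch3 interaction (-0.070, -0.024, -0.0016, -0.037 and -0.034) and of the Cspg4 interaction (-0.052 and -0.034). Over all libraries left out in turn these ranged from -0.14 to 0.32, from -0.070 to 0.11 and from -0.052 to 0.21.

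No pairing by replicate number was seen. Of 18 pairs with the same number in different groups, 0 had deviations from their group means that correlated over 0.1 (-0.106 to 0.0491). Among pairs with different numbers it was 1 of 36 (-0.122 to 0.151). With 3 libraries per group these values cannot show whether a weak pairing exists. With the number as a replicate block, 4502 genes passed in females, 2016 in males, 5482 in the sex-averaged comparison and 1 in the interaction, and of the member calls Abcc9 in the sex-averaged comparison alone was lost (adjusted p = 0.059). Depth limits Cnn1 and Tagln, with at most 22 and 4 reads per library.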
